A study of Mus musculus with 24 samples.

Results

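The replication-dependent histone genes make the bulk of the chromatin protein that is laid down on newly copied DNA. On the array they were taken as all non-control probes whose gene name begins with Hist1h, Hist2h, Hist3h or Hist4h, which gave 58 of 39429 probes and 50 of 29742 gene names. The series measured RNA of mouse blood on 24 one-colour arrays, 24 h after an x-ray dose of 7 Gy or 0 Gy, in male C57BL/6J mice labelled Gadd45aKO or Gadd45aWT. Gadd45a is a stress gene induced by DNA damage, and the study asked whether it alters blood transcripts used to estimate a radiation dose. The groups were Gadd45aKO at 7 Gy (9 arrays), Gadd45aKO at 0 Gy (5 arrays), Gadd45aWT at 7 Gy (5 arrays) and Gadd45aWT at 0 Gy (5 arrays), all drawn by cardiac puncture into an RNA stabilising solution. Neither the animals' age, nor the construction of the Gadd45a allele, nor the animal behind each array is given in the sources used here, so p-values measure the spread between these arrays alone.

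Canonical histone genes lie in clusters, have no introns and are transcribed mainly in S phase. Their mRNAs end in a conserved stem-loop bound by the stem-loop binding protein instead of a poly(A) tail, and they are degraded when DNA synthesis stops. Each nucleosome core holds H2A, H2B, H3 and H4, and H1 binds the linker DNA between cores. Blood is mostly made of cells that have left the cell cycle, although reticulocytes and platelets carry RNA from precursors that divided recently, and some histone genes also give polyadenylated transcripts in differentiated cells. The kit named in the labels amplifies from poly(A) tails, so the share of tailless histone mRNA that reached the array was not measured.

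The probes belonged to H1 (6 probes), H2A (16), H2B (13), H3 (8) and H4 (15). By the mm9 coordinates in the files, 42 lay on chromosome 13, 11 on chromosome 3, 3 on chromosome 11 and 2 on chromosome 6. They were matched to current RefSeq symbols by accession (45 probes) or by older symbol (13). The stem-loop pattern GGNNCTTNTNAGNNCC, searched on the probe strand, was present in 6 of the 58 histone probes and in 7 of all 39429 probes (0.0178%). These stretches are shown because they hold the stem-loop that sets histone messages apart, with the 16-base pattern in capitals (probe sequences from the scanner files, mm9). A stem-loop in a probe does not show that tailless mRNA was read: the Hist2h2aa1 stretch is the first 30 bases of its 60-base probe, and the rest lies beyond the stem-loop.
Hist2h2aa1, part of the probe at chr3:96049949-96050005, plus strand: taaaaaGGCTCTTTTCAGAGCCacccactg
Hist2h2bb, part of the probe at chr3:96074056-96074115, plus strand: acccaaaaGGCTCTTTTCAGAGCCacttta
Hist1h3a, part of the probe at chr13:23853756-23853815, minus strand: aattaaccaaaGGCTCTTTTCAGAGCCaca
Hist1h3g, part of the probe at chr13:23627719-23627778, plus strand: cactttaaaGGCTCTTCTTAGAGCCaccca
Hist1h3i, part of the probe at chr13:21874784-21874843, minus strand: ataacaaaaGGCTCTTTTCAGAGCCccctc
Hist1h4m, part of the probe at chr13:21903960-21904019, plus strand: caactaaaGGCCCTTTTCAGGGCCatccaa

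Other probes read the coding sequence, where histone genes are nearly alike. The 60-base probes below are shown because they share long exact runs with other histone probes, in capitals, so that their signal cannot be assigned to a single gene.
Hist1h2af, chr13:23626113-23626172, plus strand: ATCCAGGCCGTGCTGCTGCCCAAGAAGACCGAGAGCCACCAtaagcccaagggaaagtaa
Hist1h2ah, chr13:22127035-22127094, minus strand: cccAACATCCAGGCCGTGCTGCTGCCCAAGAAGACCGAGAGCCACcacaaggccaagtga
Hist1h2ak, chr13:21845304-21845363, minus strand: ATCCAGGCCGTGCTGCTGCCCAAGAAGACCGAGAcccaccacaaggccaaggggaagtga
Hist2h2aa2, chr3:96043781-96043840, minus strand: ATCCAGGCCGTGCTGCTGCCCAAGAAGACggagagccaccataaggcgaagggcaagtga
Hist1h4j, chr13:21826989-21827048, plus strand: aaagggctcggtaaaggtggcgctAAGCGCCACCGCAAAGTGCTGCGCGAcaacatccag
Hist1h4k, chr13:21842279-21842338, minus strand: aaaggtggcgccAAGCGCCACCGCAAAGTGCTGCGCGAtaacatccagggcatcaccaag

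In all, 19 probes shared a run of at least 20 bases with another histone probe, and 16 listed transcripts of more than 1 gene. A poly(A) signal hexamer, AATAAA or ATTAAA, was on the probe strand of 5 histone probes, against 16.7% of all probes. A pair of these is shown, with the hexamer in capitals, because their changes after 7 Gy ran in opposite directions.
Hist1h2be, part of the probe at chr13:23675610-23675669, minus strand: gtactgttcattATTAAAgcattcctgatt
Hist3h2ba, part of the probe at chr11:58762964-58763023, plus strand: gttcataatggtattAATAAAtttggttca

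Values are log2 of the background-subtracted signal relative to the same array's 75th percentile over the probes above background on all arrays, so 0 marks that percentile and 1 unit is a doubling. Of the 58 histone probes, 50 (for 45 gene names) were well above background on at least 5 arrays and were tested with the other probes that met this filter, 19643 in all. The 8 probes not tested were those of Hist1h1d, Hist2h2ab, Hist1h2bq, Hist3h2bb-ps and Hist1h3g, and an extra probe each of Hist2h2bb, Hist2h4 and Hist4h4. A change was called at a limma adjusted p under 0.05.

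Several arrays stood apart. Between 25.6% and 50.9% of probes were detected above background, depending on the array. The probe of Gadd45a averaged 0.52 ± 0.16 in Gadd45aKO at 0 Gy (SD, n = 4) and 0.67 ± 0.24 in Gadd45aWT at 0 Gy (SD, n = 5), with limma adjusted p = 0.859, so the genotypes are called KO-labelled and WT here. Replicates 1 and 4 of the KO-labelled 0 Gy group differed about as much as repeat spots of single arrays predict (SD of the log2 difference 0.143, against 0.142 predicted) and were counted as 1 sample. KO-labelled 7 Gy replicates 1, 2 and 4 (1.12 to 1.19 times the prediction) and WT 7 Gy replicates 1 and 2 (1.25 times) were close to that and were counted separately, so whether they are separate samples is not settled; with each set averaged, an alternative chosen after seeing the data, the histone counts below were 31 higher and 6 lower after 7 Gy in KO-labelled arrays, 3 and 5 in WT arrays, 10 and 1 for the difference of responses, and 4 and 1 between genotypes at 7 Gy. Among WT arrays at 7 Gy, replicates 3 to 5 had a mean log2 level of 0.92 to 0.95 over 25 hepatocyte genes, against -2.86 and -2.85 in replicates 1 and 2. Replicates 2 and 5 of the KO-labelled 0 Gy group stood at -4.88 and -3.95 for these genes, against -7.52 to -7.16 for the other arrays of that group. Replicate 2 also had 26.1% of probes above background, against 47.3% to 48.1% in the rest of the group. Its repeat spots varied by 15.7%, against 6.2% to 9.1%. The part of background and noise in its values was not tested. Slides 1 to 5 held 1 array of every group each, and slide 6 held KO-labelled 7 Gy replicates 6 to 9 only.

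Histone transcripts as a group were higher after 7 Gy in KO-labelled blood, relative to the other transcripts. Of the 50 tested probes, 31 were called higher and 6 lower in KO-labelled arrays at 7 Gy against 0 Gy, where 12.1% of all tested probes were called higher and 34.6% lower. The median histone change was 0.77 on the log2 scale, against -0.28 over all tested probes. The direction over all probes depends on the scaling: the median of all probes was 0.04 with the 75th percentile of all probes, 0.19 with the authors' deposited table (36 of the histone probes) and 0.48 with normexp background correction, and the histone median exceeded it by 1.05, 0.88 and 0.29. With normexp 14 histone probes were called higher and 0 lower. The call counts were carried by H4 (11 of 13 higher, 0 lower) and H2A (12 of 15 higher, 1 lower). H2B had 5 of 10 higher and 2 lower, H3 had 2 of 7 higher and 2 lower, and H1 had 1 of 5 higher and 1 lower. In WT arrays the same comparison called 2 of 50 higher and 5 lower, where 9.71% of all tested probes were higher and 13.5% lower, and the median histone change was 0.15 against -0.05. Without WT 7 Gy replicates 3 to 5 these counts were 1 and 2, and the median was 0.40. With normexp the WT median was 0.25 for histone probes and 0.63 for all tested probes, so the histone median lay below.

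**Figure D1:**
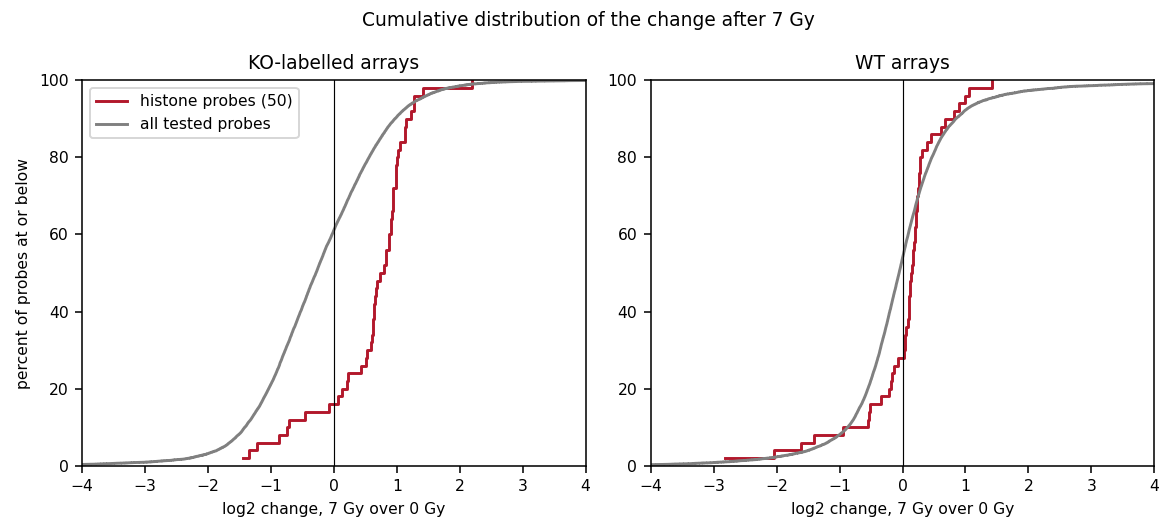
Cumulative percent of probes (vertical axis) at or below each log2 change of 7 Gy over 0 Gy (horizontal axis), for the 50 tested histone probes in red and all tested probes in grey, in KO-labelled arrays on the left and WT arrays on the right. The medians are 0.77 for histone probes and -0.28 for all probes in KO-labelled arrays, and 0.15 and -0.05 in WT arrays.

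The difference held within slides. On the 5 slides with every group, the median histone change in KO-labelled arrays was 0.43 to 1.22, and it exceeded the median of all probes on 5 of 5 slides, by 0.63 to 1.45. Slides 1 and 4 (0.56 and 0.53) are not separate comparisons. Their KO-labelled 0 Gy arrays are the near-identical replicates 1 and 4, and their KO-labelled 7 Gy arrays are close to identical too. In WT arrays the median histone change was -0.06 to 0.50, and it exceeded that of all probes on 4 of 5 slides. In KO-labelled arrays, 17 histone probes were higher on every KO-labelled 7 Gy array than on any KO-labelled 0 Gy array, against 4.94% of all tested probes, and 2 were lower on every array, against 19.2%. In WT arrays 5 were higher without overlap, against 11.4% of all tested probes, and 6 lower, against 16.6%. Without KO-labelled 0 Gy replicates 2 and 5, 17 histone probes were called higher and 3 lower, and the median change was 0.59. Among the probes named here, that ended the calls of Hist1h1b, Hist1h1c, Hist1h2ab, Hist1h2bc, Hist1h3c, Hist2h2aa1, Hist2h3b, Hist2h3c2, Hist4h4 and 1 probe each of Hist1h4d, Hist1h4i and Hist1h4k (limma adjusted p from 0.0617 to 0.433).

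Histone signal was lowest in the KO-labelled 0 Gy arrays. The median over the 50 probes, each centred on its own mean, was 0.252 ± 0.238 in KO-labelled arrays at 7 Gy (SD, n = 9) and -0.506 ± 0.283 at 0 Gy (SD, n = 4). It was 0.074 ± 0.232 in WT arrays at 7 Gy (SD, n = 5) and -0.040 ± 0.075 at 0 Gy (SD, n = 5). Within the KO-labelled 0 Gy group the lowest arrays were at -0.846 for replicate 5 and -0.614 for replicate 2. In WT at 7 Gy, replicates 1 and 2 stood at 0.330 and 0.325, while replicates 3 to 5, the arrays high in hepatocyte genes, stood at -0.125 to -0.079.

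**Figure D2:**
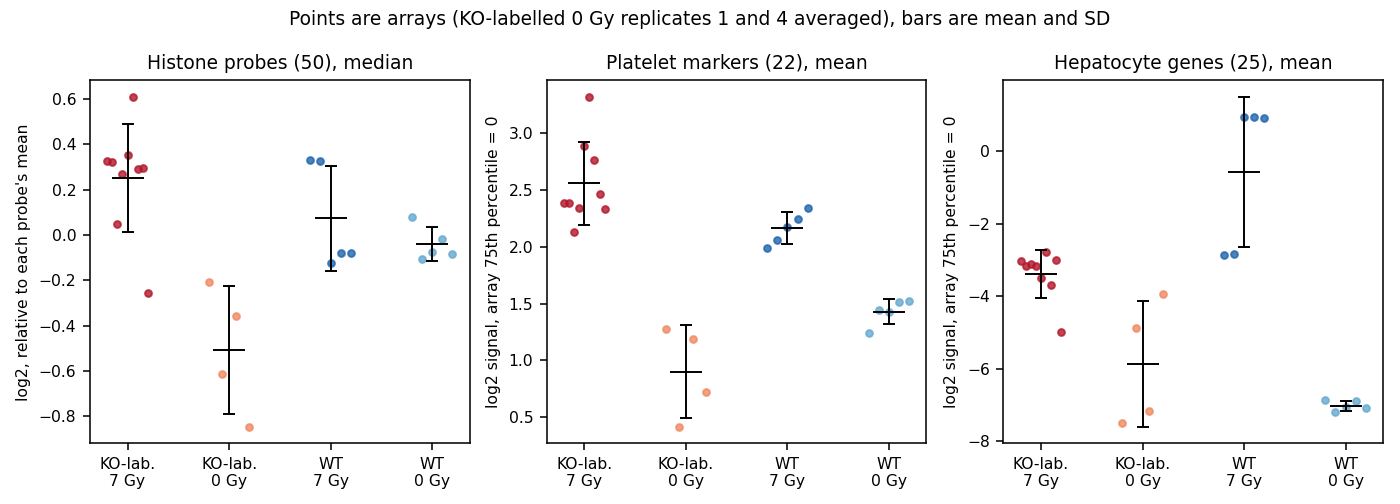
Per-array summaries by group: the median over 50 histone probes, each relative to its own mean (left), the mean log2 level of 22 platelet markers (centre) and of 25 hepatocyte genes (right), with 0 at the array's 75th percentile in the centre and right panels. Points are arrays, with KO-labelled 0 Gy replicates 1 and 4 averaged, and bars are mean and SD. Histone medians run from -0.257 to 0.610 in KO-labelled 7 Gy arrays and from -0.846 to -0.206 in KO-labelled 0 Gy arrays.

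Markers of other cells were counted in the same comparisons, where 12.1% of all tested probes were higher and 34.6% lower in KO-labelled arrays, and 9.71% higher and 13.5% lower in WT arrays. Platelet markers were called higher after 7 Gy in 20 of 22 genes in KO-labelled arrays and in 13 of 22 in WT arrays. Their summed linear signal, in units of the array's 75th percentile, was 308.4 to 616.8 in KO-labelled 7 Gy arrays and 95.3 to 200.8 in KO-labelled 0 Gy arrays, against 305.8 to 370.0 in WT 7 Gy arrays and 179.4 to 235.5 in WT 0 Gy arrays. Erythroid markers were higher in 5 and lower in 12 of 25 genes in KO-labelled arrays, and higher in 0 and lower in 16 in WT arrays. Their summed signal was 628.4 to 1878 in KO-labelled 7 Gy arrays and 631 to 1092 in KO-labelled 0 Gy arrays, against 641.8 to 1218 in WT 7 Gy arrays and 913.2 to 1435 in WT 0 Gy arrays. B cell markers were lower in 22 of 22 genes in both genotypes. T cell markers were higher in 1 and lower in 15 of 25 genes in KO-labelled arrays, and higher in 3 and lower in 7 in WT arrays. Neutrophil markers were higher in 2 and lower in 6 of 17 genes in KO-labelled arrays, and higher in 2 and lower in 1 in WT arrays, shares near those of all tested probes in KO-labelled arrays. Hepatocyte genes were higher in 19 of 25 in KO-labelled arrays and in 24 of 25 in WT arrays, and lower in none. The tested histone probes had a median GC content of 51.7%, against 43.3% for all tested probes, and tested probes at or above 51.7% had a median change of 0.09 in KO-labelled arrays, with 15.2% called higher. At or above that GC content, 21 of 26 histone probes were called higher. The part of cell makeup and GC content in the histone result was not tested, and fewer cells of a type cannot be told apart from less RNA per cell.

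H2A and H2B form the dimers at the faces of the nucleosome core. The Hist2h2aa2 probe, which reads the coding end shown above, gave 4.11 to 5.03 with a median of 4.85 in KO-labelled arrays at 7 Gy. At 0 Gy, KO-labelled replicates 1 and 4 averaged 4.12, and replicates 2, 3 and 5 gave 3.66, 3.79 and 3.52. Its 5 WT arrays at 7 Gy gave 4.63, 4.71, 4.15, 4.31 and 4.31, and those at 0 Gy gave 4.19, 4.19, 4.21, 4.37 and 4.32. The KO-labelled groups met only at KO-labelled 7 Gy replicate 9, the lowest of its group, and the WT groups overlapped. Hist2h2aa2 rose by 0.98 ± 0.17 in KO-labelled arrays (SE, limma adjusted p = 5.95e-05), against 0.17 ± 0.18 in WT arrays (adjusted p = 0.58).

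The other H2A probes of the coding end moved by like amounts in KO-labelled arrays: Hist1h2af by 0.99 ± 0.18, Hist1h2ah by 0.93 ± 0.18 and the Hist1h2ak probe shown by 0.91 ± 0.18. These 4 probes share bases, so they are not separate observations of 4 genes. Of the 16 probes that list transcripts of more than 1 gene, 15 were tested and 14 were called higher in KO-labelled arrays. Of the other 35 tested probes, 17 were called higher and 6 lower. Among all tested probes 12.1% were called higher and 34.6% lower in the same comparison.

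Hist1h2aa encodes an H2A best known from testis. It gave -4.74 to -4.23 with a median of -4.38 in KO-labelled arrays at 7 Gy, and -5.42, -5.32, -5.33 and -5.39 at 0 Gy (replicates 1 and 4 averaged, 2, 3 and 5). These groups did not overlap. It rose by 0.93 ± 0.15 in KO-labelled arrays (SE, limma adjusted p = 2.26e-05) and changed by 0.21 ± 0.15 in WT arrays (adjusted p = 0.373).

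The H2A probes of Hist1h2ae, Hist1h2ab and Hist3h2a were not called higher in KO-labelled arrays. Hist1h2ae gave -6.00 to -3.99 with a median of -4.53 in KO-labelled arrays at 7 Gy and -4.80, -6.02, -4.76 and -5.51 at 0 Gy, a change of 0.69 ± 0.31 (SE, limma adjusted p = 0.077). In WT arrays it gave -4.85, -4.81, -6.01, -5.69 and -5.85 at 7 Gy and -4.42, -4.53, -4.75, -4.25 and -4.52 at 0 Gy. The WT groups did not overlap, and Hist1h2ae fell by 0.95 ± 0.33 (adjusted p = 0.0404), a call that ended without WT 7 Gy replicates 3 to 5 (-0.34, adjusted p = 0.738) and turned to 0.39 with normexp. Hist1h2ab fell by 0.74 ± 0.28 in KO-labelled arrays (adjusted p = 0.034) and was at -0.34 ± 0.30 in WT arrays (adjusted p = 0.475). Hist3h2a was at 0.23 ± 0.19 in KO-labelled arrays and 0.27 ± 0.20 in WT arrays (SE, limma adjusted p = 0.35 and 0.39).

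In H2B the probes divided. Hist1h2be gave -2.70 to -1.62 with a median of -2.38 in KO-labelled arrays at 7 Gy and -3.48, -3.75, -3.58 and -3.84 at 0 Gy. In WT arrays it gave -2.27, -2.20, -2.22, -2.18 and -1.97 at 7 Gy and -3.14, -3.12, -3.21, -3.14 and -3.18 at 0 Gy. In neither genotype did the dose groups overlap, and the WT 7 Gy arrays high in hepatocyte genes lay beside the others. Hist1h2be rose by 1.42 ± 0.17 in KO-labelled arrays (2.67-fold, SE, limma adjusted p = 6.77e-07) and by 0.99 ± 0.18 in WT arrays (1.98-fold, adjusted p = 0.000212). It remained called in both genotypes without either set of arrays that stood apart, at 1.29 in KO-labelled arrays without 0 Gy replicates 2 and 5 and at 0.92 in WT arrays without 7 Gy replicates 3 to 5.

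Hist1h2bc rose by 1.14 ± 0.23 and Hist1h2bg by 1.27 ± 0.23 in KO-labelled arrays (SE, limma adjusted p = 0.000382 and 9.21e-05), against 0.20 ± 0.25 and 0.45 ± 0.24 in WT arrays, where neither was called. The Hist1h2bc call ended without KO-labelled 0 Gy replicates 2 and 5 (0.63, adjusted p = 0.0714). Hist1h2ba, a testis H2B gene, and the shared probe of Hist1h2bm were the other H2B probes called higher, by 0.93 ± 0.19 and 0.999 ± 0.209.

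Hist1h2bp was called in WT arrays and not in KO-labelled arrays. It gave -4.49 to -2.75 with a median of -3.10 in KO-labelled arrays at 7 Gy and -3.62, -3.54, -3.99 and -3.79 at 0 Gy, which overlapped. In WT arrays it gave -3.64, -3.73, -4.55, -4.85 and -4.46 at 7 Gy and -3.11, -2.69, -2.79, -2.78 and -2.84 at 0 Gy, which did not. Hist1h2bp fell by 1.40 ± 0.27 in WT arrays (SE, limma adjusted p = 0.000547), and the KO-labelled change was 0.53 ± 0.26 (adjusted p = 0.102). Without WT 7 Gy replicates 3 to 5 the WT change was -0.84 (adjusted p = 0.129).

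Hist3h2ba, the H2B gene of the small chromosome 11 cluster, fell in both genotypes. It gave -5.73 to -1.71 with a median of -2.65 in KO-labelled arrays at 7 Gy and -1.25, -1.98, -0.92 and -2.66 at 0 Gy. In WT arrays it gave -3.48, -3.80, -4.45, -4.69 and -5.25 at 7 Gy and -0.93, -1.68, -1.41, -1.34 and -2.21 at 0 Gy. The WT groups did not overlap and the KO-labelled groups did. The fall was 1.34 ± 0.54 in KO-labelled arrays (SE, limma adjusted p = 0.0439) and 2.82 ± 0.56 in WT arrays (adjusted p = 0.000707). Without WT 7 Gy replicates 3 to 5, the adjusted p was 0.0503 in KO-labelled arrays and 0.0882 in WT arrays (-2.13), and neither was called.

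Hist2h2be, an H2B gene studied in olfactory neurons, was well above background on 1 of 9 KO-labelled arrays at 7 Gy, against 4 of 5 at 0 Gy, and on 5 of 5 WT arrays at 7 Gy, against 4 of 5 at 0 Gy. Its values were -7.79 to -6.23 with a median of -7.12 in KO-labelled arrays at 7 Gy and -5.88, -5.36, -5.80 and -5.60 at 0 Gy, without overlap. In WT arrays they were -5.92, -5.91, -4.95, -5.06 and -4.83 at 7 Gy and -6.41, -5.91, -5.78, -5.90 and -6.01 at 0 Gy. The fitted KO-labelled change was -1.45 ± 0.26 (SE, limma adjusted p = 8.99e-05), whose size is not measured because the 7 Gy group lay mostly at background, and the WT change was 0.67 ± 0.27 (adjusted p = 0.0817). With normexp background correction, which treats dim spots otherwise, the KO-labelled change was 0.43.

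**Figure D3:**
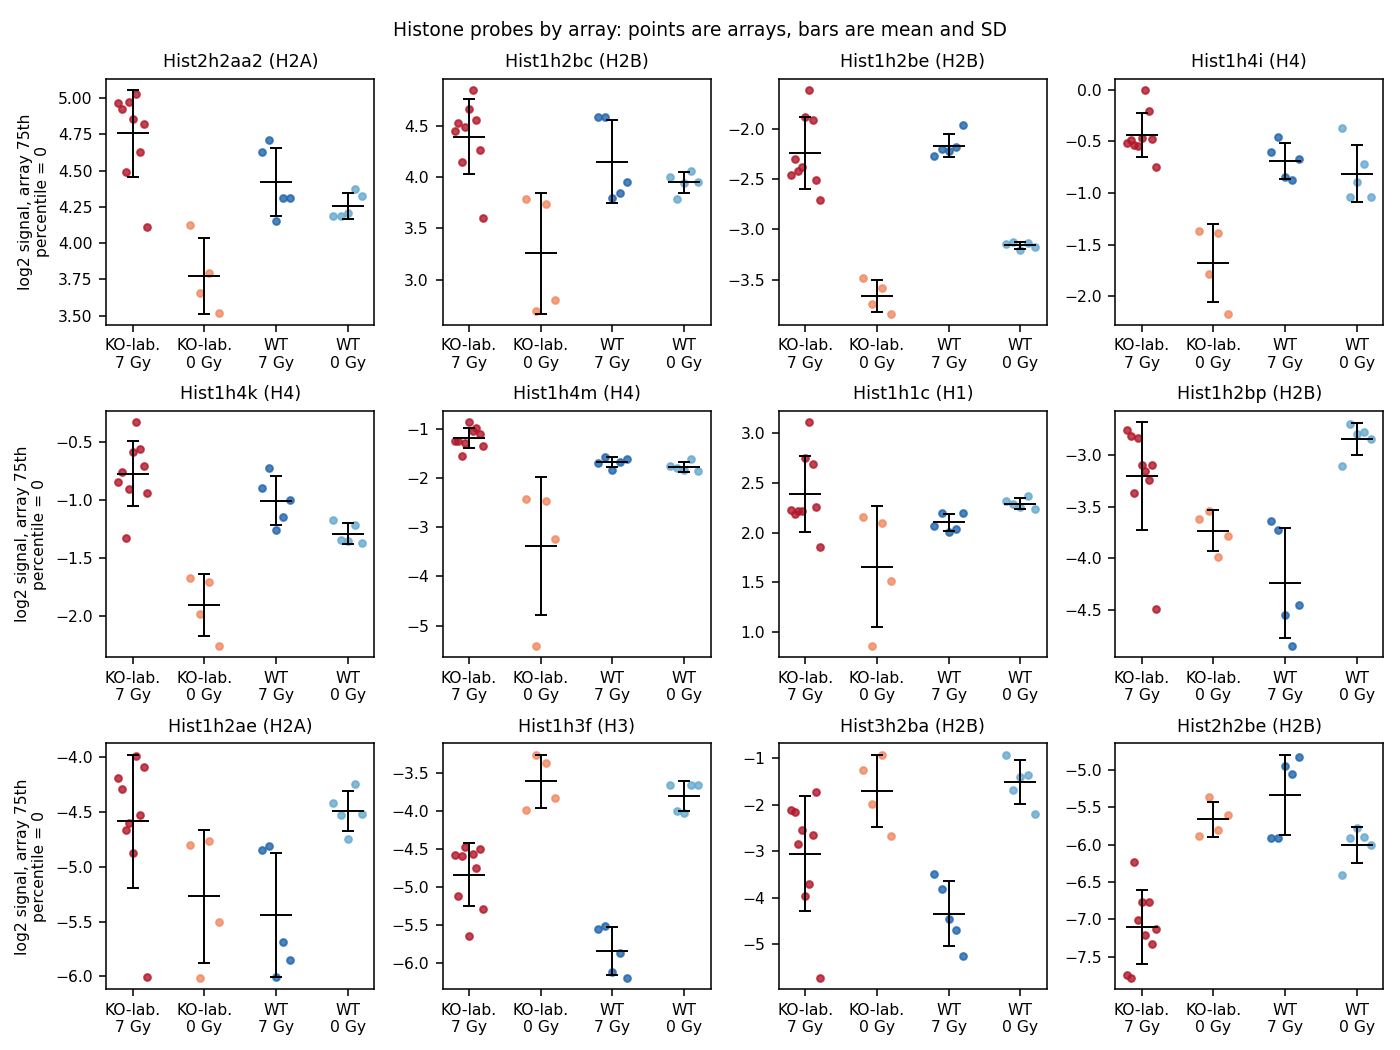
Log2 signal of 12 histone probes (vertical axes, 0 at the array's 75th percentile) by group (horizontal axes). Points are arrays, with KO-labelled 0 Gy replicates 1 and 4 averaged, and bars are mean and SD. Hist1h2be is higher at 7 Gy in both genotypes without overlap, Hist1h3f is lower in both without overlap, and Hist2h2be reads -7.79 to -6.23 in KO-labelled 7 Gy arrays.

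H3 and H4 form the core's inner tetramer, and all mouse H4 gene copies encode nearly the same protein. The H4 probes were the most uniform: all 13 tested changed in the upward direction in KO-labelled arrays, from 0.20 to 2.19, and 11 were called. Among all tested probes 12.1% were called higher. The 13 probes stand for 9 gene names, and some share exact runs, as the Hist1h4j and Hist1h4k probes shown above do. They are therefore not 13 separate observations. Hist1h4m, whose probe holds the stem-loop, gave -1.56 to -0.87 with a median of -1.25 in KO-labelled arrays at 7 Gy and -2.43, -5.41, -2.46 and -3.25 at 0 Gy. In WT arrays it gave -1.70, -1.57, -1.84, -1.67 and -1.61 at 7 Gy and -1.76, -1.80, -1.84, -1.61 and -1.87 at 0 Gy. The KO-labelled groups did not overlap and the WT groups did. Hist1h4m rose by 2.19 ± 0.33 in KO-labelled arrays (SE, limma adjusted p = 1.64e-05), and by 1.25 without 0 Gy replicates 2 and 5 (adjusted p = 2.05e-05), of which replicate 2 carried the lowest value. The WT change was 0.10 ± 0.35 (adjusted p = 0.903).

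Hist1h4i had 3 probes, and all were called higher in KO-labelled arrays, by 1.23 ± 0.17, 1.05 ± 0.19 and 1.01 ± 0.25, while the WT changes were 0.12, 0.14 and 0.11. The first of these gave -0.74 to 0.00 with a median of -0.48 in KO-labelled arrays at 7 Gy and -1.37, -1.78, -1.38 and -2.17 at 0 Gy, without overlap. The Hist1h4k probe shown above rose by 1.13 ± 0.16 and the Hist1h4j probe by 0.88 ± 0.17 in KO-labelled arrays, against 0.28 ± 0.17 and 0.26 ± 0.17 in WT arrays. The exceptions among the H4 probes were Hist1h4h, dim on most arrays, and a Hist1h4d probe whose WT 0 Gy replicate 1 read -4.05, where the other 4 WT arrays read 0.86 to 1.27.

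H3 probes moved both ways. Hist1h3f gave -5.64 to -4.47 with a median of -4.59 in KO-labelled arrays at 7 Gy and -3.98, -3.26, -3.36 and -3.83 at 0 Gy. In WT arrays it gave -5.54, -5.50, -6.11, -5.86 and -6.20 at 7 Gy and -3.66, -3.998, -4.02, -3.65 and -3.66 at 0 Gy. No dose groups overlapped. Hist1h3f fell by 1.23 ± 0.22 in KO-labelled arrays (2.34-fold lower, SE, limma adjusted p = 8.27e-05) and by 2.05 ± 0.23 in WT arrays (4.13-fold lower, adjusted p = 5.23e-07). With normexp neither was called, and the changes were -0.119 and 0.0783, so the WT direction turned. Hist1h3c fell as well, by 0.71 ± 0.25 in KO-labelled arrays (adjusted p = 0.0241) and by 1.61 ± 0.27 in WT arrays (adjusted p = 8.65e-05).

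Hist2h3c2 and Hist2h3b, of the chromosome 3 cluster, were the H3 probes called higher in KO-labelled arrays, by 0.93 ± 0.30 and 0.62 ± 0.17 (SE, limma adjusted p = 0.0124 and 0.00511). Hist2h3c2 was also called in WT arrays, by 1.06 ± 0.31 (adjusted p = 0.0156), a call that ended without WT 7 Gy replicates 3 to 5 (1.10, adjusted p = 0.139). Its WT 0 Gy replicate 1 read -6.38, where the other 4 read -4.78 to -4.59. Hist2h3b was at -0.17 ± 0.18 in WT arrays (adjusted p = 0.591).

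Among the linker histones, Hist1h1c gave 1.85 to 3.11 with a median of 2.23 in KO-labelled arrays at 7 Gy and 2.16, 0.86, 2.10 and 1.51 at 0 Gy. It rose by 0.74 ± 0.22 in KO-labelled arrays (SE, limma adjusted p = 0.00777), and was at 0.26 without 0 Gy replicates 2 and 5 (adjusted p = 0.433). The KO-labelled groups overlapped, and the 2 lowest 0 Gy values were those replicates. Hist1h1b fell by 0.86 ± 0.30 in KO-labelled arrays (adjusted p = 0.023) and was at -0.55 ± 0.32 in WT arrays (adjusted p = 0.25). The KO-labelled call ended without 0 Gy replicate 2 (-0.53, adjusted p = 0.162), and the change turned to 0.35 with normexp (adjusted p = 0.639). Hist1h1e, Hist1h1a and the testis gene Hist1h1t were called in neither genotype.

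The response to 7 Gy differed between the genotype labels for 12 of the 50 probes. The KO-labelled response was higher than the WT response for 11 and lower for 1, where 3.19% of all tested probes were higher and 11.5% lower. The median difference was 0.63 for histone probes and -0.27 for all tested probes. Tested probes at or above a GC content of 51.7% had a median difference of 0.06, with 3.90% called higher. Of the 26 histone probes among them 7 were called higher, and the part of GC content was not tested. The largest differences were those of Hist1h4m (2.09 ± 0.49, SE, limma adjusted p = 0.00836), Hist1h2bp (1.93 ± 0.38, adjusted p = 0.00331) and Hist1h2ae (1.64 ± 0.46, adjusted p = 0.0208). Hist1h4i followed with 2 probes, at 1.11 ± 0.25 and 0.91 ± 0.27. The other 6, Hist1h2af, Hist1h2ak, Hist1h4k, Hist2h2aa2, Hist2h3b and Hist1h2aa, lay between 0.72 and 0.88. Hist2h2be was called lower (fitted -2.11 ± 0.37, adjusted p = 0.00211), with 1 of 9 KO-labelled 7 Gy arrays above background, and its size is not measured (-0.49 with normexp, not called).

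**Figure D4:**
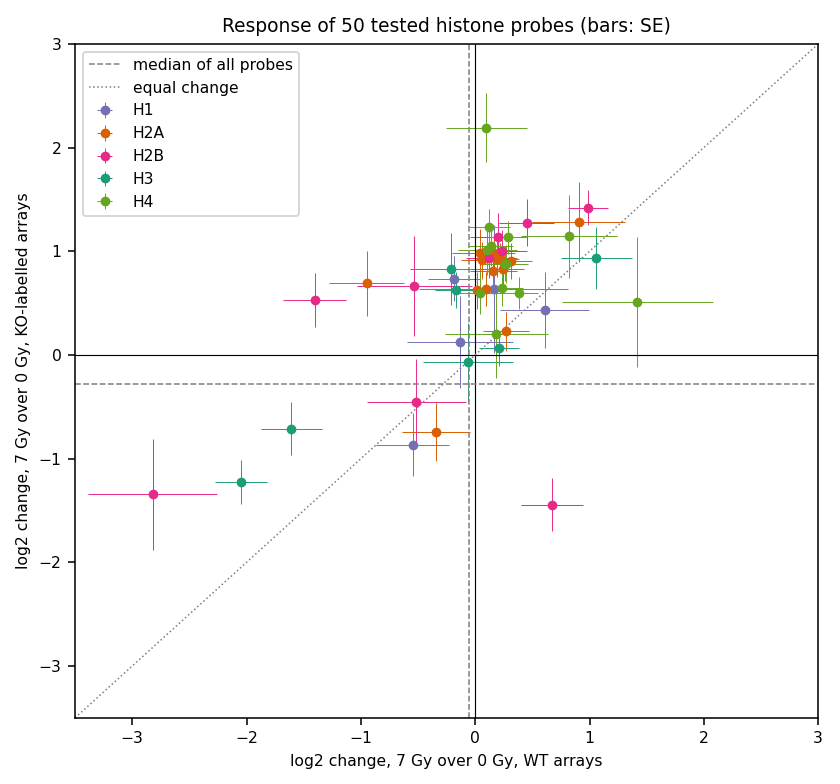
Log2 change of 7 Gy over 0 Gy in KO-labelled arrays (vertical axis) against WT arrays (horizontal axis) for the 50 tested histone probes, coloured by class, with standard errors as bars. Dashed lines mark the medians of all tested probes, -0.28 and -0.05, and the dotted line marks equal change. Most H2A and H4 probes lie above the dotted line near 0 on the WT axis, and Hist2h2be, mostly at background in KO-labelled 7 Gy arrays, is the point at -1.45 and 0.67.

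The difference rested on few arrays and on the background correction. With normexp 0 histone probes were called. Both blocks were fitted on all 24 arrays, for which 12 probes were higher and 1 lower without a block. With the slide as a block 15 were higher and 1 lower, and with the replicate block, whose numbers 1 to 5 are also the slides, 20 and 1. Calls over all 19643 tested probes rose too. They were 663 higher and 2567 lower without a block, 1992 and 4136 with the slide block, and 2519 and 4908 with the replicate block. Without WT 7 Gy replicates 3 to 5, the count of histone probes was 0 higher and 1 lower (Hist2h2be, -1.53, adjusted p = 0.0316), and the median difference was 0.42. Hist1h4m was then at 2.05 (adjusted p = 0.0559) and Hist1h2bp at 1.37 (adjusted p = 0.0538). Without KO-labelled 0 Gy replicates 2 and 5, 2 were higher, Hist1h2bp at 2.003 and Hist1h4m at 1.15. Within slides the median difference over histone probes was 0.30 to 1.27 and exceeded that of all probes on 5 of 5 slides. Slides 1 and 4 are again not separate, as they hold the near-identical KO-labelled 0 Gy replicates 1 and 4. Platelet markers (10 of 22) and erythroid markers (11 of 25) were higher in the same contrast, with medians of 1.01 and 1.26, and their part in the histone result was not tested.

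At 0 Gy, before any response, 0 of 50 histone probes were called between KO-labelled and WT arrays by limma, where 0.158% of all tested probes were higher and 0.0713% lower. On all 24 arrays 1 was lower without a block, 0 were called with the slide as a block, and 3 were lower with the replicate block. Over all 19643 tested probes 23, 26 and 128 were lower in these fits. At an unadjusted p under 0.05, 25 histone probes were lower and 0 higher, against 3.45% and 5.73% of all tested probes. The median difference was -0.42 for histone probes and 0.10 for all tested probes, 40 of 50 were below 0, and 21 were lower on every KO-labelled array than on any WT array, against 3.65% of all tested probes. None was higher without overlap, against 6.62%. At or above a GC content of 51.7%, the median difference was -0.43 for histone probes and -0.02 for all tested probes. Without KO-labelled 0 Gy replicates 2 and 5 the median difference was -0.20, and it lay below that of all probes by 0.23 in place of 0.51. Hist1h4m was at -1.61 ± 0.37 (SE, limma adjusted p = 0.0815), and at -0.94 without KO-labelled 0 Gy replicate 2 (adjusted p = 0.0353), the array that read -5.41. Hist1h2ac was at -0.92 ± 0.26 (adjusted p = 0.185). The median within slides was -0.76 to -0.22, where slides 1 and 4 again hold the near-identical KO-labelled 0 Gy replicates 1 and 4. Platelet markers had a median of -0.63 in this contrast, with 0 of 22 called, and their part was not tested.

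After 7 Gy, 6 of 50 histone probes were called higher and 2 lower in KO-labelled than in WT arrays, where 4.55% of all tested probes were higher and 17.5% lower. The higher ones were Hist1h2bp (1.04 ± 0.24), Hist1h3f (1.01 ± 0.20, and -0.0419 with normexp), Hist1h2ae (0.86 ± 0.29), Hist1h3c (0.74 ± 0.23), Hist2h3b (0.53 ± 0.16) and Hist1h2aa (0.38 ± 0.14). The lower ones were Hist2h2be (fitted -1.77 ± 0.24, SE, limma adjusted p = 2.57e-05, with 1 of 9 KO-labelled arrays above background, and -0.47 and not called with normexp) and Hist1h3d (-0.44 ± 0.16, adjusted p = 0.0483). The median difference was 0.18, against -0.13 over all tested probes. Without WT 7 Gy replicates 3 to 5, 0 were higher and 1 lower (Hist2h2be, -1.19, adjusted p = 0.0252), and the median was -0.08. With normexp 0 were called. On all 24 arrays 6 were higher without a block, 9 with the slide as a block and 11 with the replicate block. Over all 19643 tested probes 950, 2351 and 2763 were higher in these fits.

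Genes that process and deposit histones were mostly lower after 7 Gy in KO-labelled arrays. Of 16 tested genes of histone mRNA transcription and end processing, 0 were called higher and 11 lower after 7 Gy, with a median of -1.03, where 34.6% of all tested probes were lower. In WT arrays 0 were higher and 2 lower, with a median of -0.41, a share near the 13.5% of all tested probes. Slbp, the stem-loop binding protein, averaged -5.70 ± 0.34 in KO-labelled arrays at 7 Gy (SD, n = 9) and -4.71 ± 0.69 at 0 Gy (SD, n = 4), and fell by 0.99 ± 0.27 (SE, limma adjusted p = 0.00433). Cpsf2 and Cpsf3, of the cleavage complex, fell by 1.85 ± 0.33 and 1.42 ± 0.25, and Srrt, an RNA cap-binding partner, by 1.28 ± 0.29. Eri1, an exonuclease that trims histone mRNA ends, fell by 1.21 ± 0.33. Npat, a coactivator of histone transcription, was at -0.40 ± 0.53 (adjusted p = 0.563). Most of these probes were dim: Slbp was well above background on 18 of 24 arrays and Eri1 on 7.

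Of 17 tested chaperone and deposition genes, 0 were higher and 12 lower in KO-labelled arrays (median -0.93), and 0 were higher and 7 lower in WT arrays (median -0.51), against the same 34.6% and 13.5% lower among all tested probes. Rbbp4, a histone-binding subunit of several chromatin complexes, fell by 2.33 ± 0.13 in KO-labelled arrays (SE, limma adjusted p = 2.29e-11) and by 2.16 ± 0.13 in WT arrays (adjusted p = 1.97e-10). Ssrp1, of the FACT chaperone, fell by 1.57 ± 0.21 and Rbbp7 by 1.46 ± 0.18 in KO-labelled arrays. Nasp, an H1 and H3-H4 chaperone, fell by 0.93 ± 0.17 in KO-labelled arrays (adjusted p = 0.000126) and by 0.76 ± 0.18 in WT arrays (adjusted p = 0.00317).

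S phase genes were mostly lower in KO-labelled arrays: 15 of 24 were lower and 1 higher in KO-labelled arrays (median -1.08), and 8 were lower and 1 higher in WT arrays (median -0.69). Cdt1, a replication licensing factor, fell by 1.91 ± 0.15 in KO-labelled arrays (SE, limma adjusted p = 3.63e-09) and by 1.476 ± 0.161 in WT arrays (adjusted p = 3.89e-07). Pcna, the replication clamp, fell by 1.29 ± 0.18 and 0.66 ± 0.19. The gene called higher in both was Cdc45, a helicase partner, by 1.26 ± 0.23 and 0.75 ± 0.24. Among all tested probes 34.6% were lower in KO-labelled arrays and 13.5% in WT arrays.

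Of 10 tested histone variant genes outside the clusters, 1 was higher and 4 lower in KO-labelled arrays, and 0 were higher and 2 lower in WT arrays, near the shares of all tested probes (12.1% and 34.6%, and 9.71% and 13.5%). H2afj, an H2A variant, was the one that rose, by 1.12 ± 0.19 in KO-labelled arrays (SE, limma adjusted p = 6.34e-05), against 0.09 ± 0.20 in WT arrays (adjusted p = 0.835). H3f3a, which encodes the replication-independent histone H3, fell by 0.61 ± 0.22 in KO-labelled arrays (adjusted p = 0.0251) and by 1.61 ± 0.23 in WT arrays (adjusted p = 1.33e-05). Cenpa, the centromeric H3, fell by 1.26 ± 0.16 and 1.04 ± 0.17, and H2afz, at -0.11 ± 0.15 and -0.31 ± 0.16, was called in neither.

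**Figure D5:**
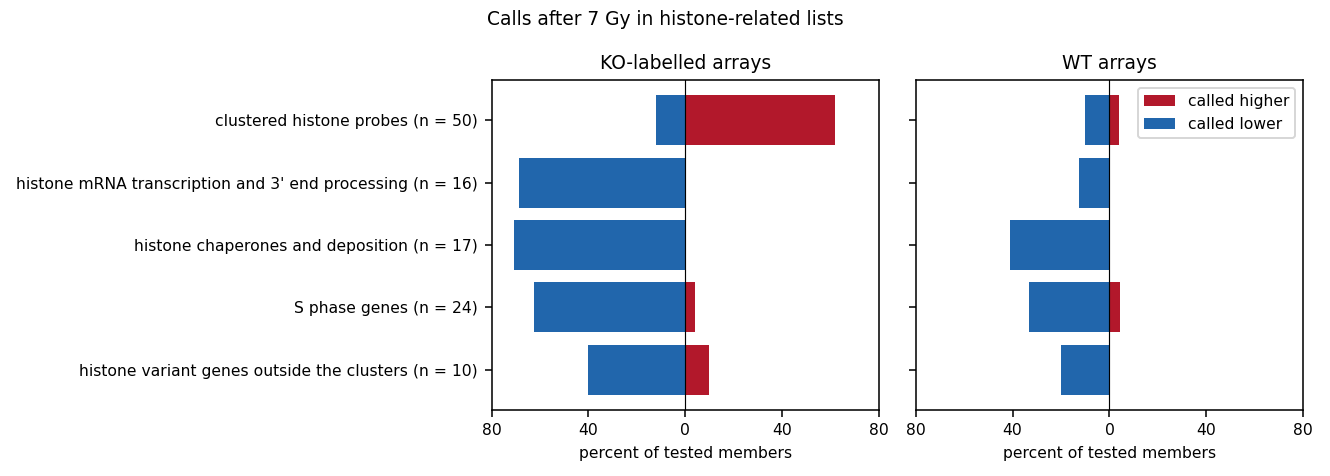
Percent of tested members called higher (red, right of 0) and lower (blue, left of 0) after 7 Gy (horizontal axis) in the clustered histone probes and 4 related gene lists (rows), in KO-labelled arrays on the left and WT arrays on the right. In KO-labelled arrays 31 of 50 histone probes are higher, while 11 of 16 processing genes and 12 of 17 chaperone genes are lower.

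Promoter letters set H2A and H2B apart from the other classes. The octamer ATTTGCAT, searched on both strands over the 300 bases from 250 before to 50 after the RefSeq start (GRCm38.p6), was in 13 of 45 histone promoters, of which 7 were among 15 H2A and 6 among 10 H2B promoters, and in 1.74% of 32851 promoters of all genes. CCAAT was in 39 of 45 against 37.4%, and TATAAA in 26 of 45 against 13.6%. The promoter of Hist1h2bg is shown, with the octamer in capitals, because Hist1h2bg and Hist1h2ae lie head to head and share most of this window.
Hist1h2bg, chr13:23571150-23571449, plus strand, GRCm38.p6: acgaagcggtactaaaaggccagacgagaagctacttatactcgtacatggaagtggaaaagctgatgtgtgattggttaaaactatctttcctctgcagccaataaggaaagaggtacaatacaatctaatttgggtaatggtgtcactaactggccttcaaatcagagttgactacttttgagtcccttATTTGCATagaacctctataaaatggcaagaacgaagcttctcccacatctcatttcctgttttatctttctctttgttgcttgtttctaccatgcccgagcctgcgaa

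Whether changes differ with the octamer was not tested. Among all tested probes, 12.1% were called higher and 34.6% lower in KO-labelled arrays. Of the H2A probes with an octamer promoter, 4 of 7 were called higher and 1 lower in KO-labelled arrays, and of those without, 8 of 8 were higher. Both sets hold coding-end probes that share long runs, such as Hist1h2ah with the octamer and Hist1h2af without. Their signal cannot be assigned to a single gene, so these counts cannot relate a promoter to a change. In H2B, 4 of 6 probes with the octamer were higher and 0 lower, and of 3 without, 1 was higher and 1 lower. The higher probe of these 3 is that of Hist1h2be, which has a start with the octamer and another without. It is therefore counted in both sets. Of 5 tested stem-loop probes, 2 were called higher in KO-labelled arrays, Hist1h4m and Hist2h2aa1 (1.28 ± 0.39, SE, limma adjusted p = 0.00901), and 0 lower. A match is a description of letters and not of a bound site.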

How the data were processed

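Spot intensity was read by the authors with Agilent Feature Extraction 12.0.2, per the file headers, with the processed signal background-subtracted within each array and no scaling between arrays. The deposited value table holds log2 values, equal to the log2 processed signal plus a constant per array, with column medians of 5.76 to 7.18; it served as an alternative. RNA labelling followed the labels' protocols (Cy3, although some dye fields name another dye).

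Repeat spots were averaged, and log2 signals were set relative to each array's 75th percentile over the 7797 probes above background on all 24 arrays. The 19643 probes above background on at least 5 arrays were fitted over all 4 groups with limma 3.58.1 in R 4.3.3, 23 samples, with Benjamini-Hochberg adjustment at 0.05, two-sided. The same limma steps, written out separately, were afterwards run on simulated arrays, which did not cover the averaging of arrays or the blocks. Figures used Python 3.11.15, pandas 2.3.3, NumPy 2.4.6 and matplotlib 3.10.9. Precision is limited by the number of arrays. The histone probes and the 10 gene lists were chosen with earlier results of these data known. Named are up to 10 called increases and decreases per comparison, the 2 brightest per class, genes whose probes disagree, and up to 4 called genes per list; Slbp, Npat, Pcna, Cdc45 and H2afz were added for their roles after their values were seen. Alternatives covered scaling, background correction, filters, slide and replicate blocks (both fitted on all 24 arrays, none averaged) and left-out arrays. Same-numbered arrays of different groups correlated by -0.39 to 0.73 over 30 pairs (median 0.24, 20 above 0.1), against a median of -0.03 over 180 pairs of different number (59 above 0.1). Numbers 1 to 5 coincide with slides 1 to 5. The main model was set without a block because not every pair passed 0.1 and the labels name no shared source. These reasons do not exclude an effect of the slide, which only the block alternatives take up.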

Additional observations from a re-analysis of the deposited data

Results flagged for a closer look

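In 31 histone probes, 124 groups of arrays were checked for an array far from its group, and 15 were found; chance gives about 1 in 20 groups. WT 0 Gy replicate 1, whose repeat spots varied by 26.8%, was the far array in 8 of them. It was lowest for Hist2h2aa1 (1.16), Hist4h4 (-3.71), Hist2h3c2 (-6.38), Hist1h3d (0.026) and a Hist1h4d probe (-4.05), and highest for a Hist1h4i probe (1.87), Hist1h3c (1.17) and Hist2h3b (-3.36), all log2 relative to the array's 75th percentile. KO-labelled 7 Gy replicate 9 was lowest for Hist1h2bp (-4.49), Hist1h2ae (-6.00) and Hist1h2af (3.804), and KO-labelled 7 Gy replicate 6 was highest for Hist2h3c2 (-2.85). The averaged KO-labelled 0 Gy replicates 1 and 4 were highest for Hist1h4d (1.499), WT 0 Gy replicate 4 was highest for Hist1h4k (1.33), and WT 0 Gy replicate 5 was lowest for the other Hist1h4d probe (-0.83).

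The 7 Gy response differed between KO-labelled and WT arrays by the test of the difference itself (limma, adjusted p under 0.05) for 12 probes. The KO-labelled minus WT difference was 2.09 for Hist1h4m, 1.93 for Hist1h2bp, 1.64 for Hist1h2ae, 1.11 and 0.91 for probes of Hist1h4i, 0.88 for Hist1h2af, 0.85 for Hist1h2ak, 0.85 for Hist1h4k, 0.81 for Hist2h2aa2, 0.79 for Hist2h3b, 0.72 for Hist1h2aa and -2.11 for Hist2h2be, which was above background on 1 of 9 KO-labelled 7 Gy arrays.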

How the results depend on the processing

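Counts below are of histone probes called. After 7 Gy in KO-labelled arrays, 31 were higher: 14 with normexp, 17 without KO-labelled 0 Gy replicates 2 and 5, and 29 to 34 without single arrays. The 6 lower became 2 with scaling to the 75th percentile of all probes, 2 with median scaling, 3 with quantile normalization, 0 with normexp, 3 with the authors' deposited table, 2 with only probes above background on all arrays, 2 with no filter, 3 with the slide block, 3 without the noisy arrays, 3 without KO-labelled 0 Gy replicates 2 and 5, and 3 to 6 without single arrays (3 without KO-labelled 0 Gy replicate 2). In WT arrays, the 2 higher became 9 with quantile normalization, 1 with normexp, 1 with the all-array filter, 1 without 7 Gy replicates 3 to 5 and 2 to 3 without single arrays; the 5 lower became 1, 3 and 2 with normexp, that filter and those arrays left out, and 4 to 5 without single arrays. Of the difference of responses, 11 higher became 18 with either other percentile or median scaling, 0 with normexp, 2 with the authors' table, 3 with no filter, 20 with the replicate block, 4 without noisy arrays, 0 without WT 7 Gy replicates 3 to 5 and 2 without KO-labelled 0 Gy replicates 2 and 5. Without single arrays it was 3 to 21, 3 and 5 without KO-labelled 0 Gy replicates 5 and 2, 21 without KO-labelled 7 Gy replicate 9, 6, 5 and 7 without WT 7 Gy replicates 3, 4 and 5, and 7 without WT 0 Gy replicate 1 or 4. The 1 lower, Hist2h2be, became 0 with normexp, was not tested with the all-array filter, and stayed 1 without single arrays. At 0 Gy, the 0 lower became 1 with the all-array filter, 1 with all 24 arrays, 3 with the replicate block, 1 without noisy arrays and 0 to 1 without single arrays (1 without KO-labelled 0 Gy replicate 2 or 3 or KO-labelled 7 Gy replicate 6 or 9). At 7 Gy, the 6 higher became 0 with normexp, 2 with no filter, 11 with the replicate block, 0 without WT 7 Gy replicates 3 to 5 and 2 to 11 without single arrays (2 without WT 7 Gy replicate 3 or 4, 3 without replicate 5, 11 without KO-labelled 7 Gy replicate 9); the 2 lower became 1 with other percentile scaling, median scaling, the authors' table, either filter, WT 7 Gy replicates 3 to 5 left out or near-identical arrays averaged, 0 with normexp, and 1 to 2 without single arrays (1 without KO-labelled 0 Gy replicate 3, KO-labelled 7 Gy replicate 1, 2, 3, 4 or 8, WT 0 Gy replicates 2 to 5 or WT 7 Gy replicates 2 to 5). Normexp turned 5 directions: KO-labelled Hist2h2be (0.43) and Hist1h1b (0.35), WT Hist1h3f (0.0783) and Hist1h2ae (0.39), and Hist1h3f between genotypes at 7 Gy (-0.0419). The cause was not tested. Leaving out KO-labelled 0 Gy replicates 2 and 5 and averaging near-identical arrays were chosen after seeing the data.

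Scaling moved the median KO-labelled change of all probes to 0.04 (75th percentile of all probes), -0.03 (median), -0.10 (quantile), 0.48 (normexp) and 0.19 (authors' table), against -0.28; the histone median exceeded it by 1.05, 1.05, 0.91, 0.29 and 0.88, against 1.05. All tested probes split into 3721 higher and 4325 lower with the first of these, against 2369 and 6802. Signal over background limits the dim probes, Hist2h2be, Hist1h3a and Hist1h1a among them.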
